A study of Homo sapiens with 4 samples.

Results

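The TRIM genes encode the tripartite motif proteins, a family of ubiquitin ligases. They were followed in T24 cells after knockdown of NSUN2, an enzyme that places 5-methylcytosine on tRNAs and other RNAs. T24 is a human cell line derived from a carcinoma of the urinary bladder. The members were the protein-coding genes of the count table whose symbol starts with TRIM and a digit, without TRIM16, TRIM16L, TRIM22 and TRIM25. They numbered 74 of the 62893 genes listed. RNA came from T24 cells given siRNA against NSUN2 (siNSUN2, 2 libraries) and from T24 cells given control siRNA (siControl, 2 libraries). No dose, time after transfection or siRNA sequence is given in the sources used here. The labels do not say that replicates came from separate cultures, and the p-values therefore reflect only how far these libraries differed, possibly for technical reasons.

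A typical TRIM protein begins with a RING finger. It binds a ubiquitin-conjugating (E2) enzyme that carries ubiquitin and promotes the transfer of ubiquitin from the enzyme to a target protein. B-box zinc fingers and a coiled coil, through which the proteins pair, follow the RING. The C-terminal part differs between members and selects the target: a PRY-SPRY domain in many antiviral members, NHL repeats in others, and a PHD finger with a bromodomain in the chromatin-bound members. The family is best known for restricting viruses, for tuning innate immune signalling and, through TRIM28, for silencing genes bound by KRAB zinc finger proteins.

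Library totals were 92640839 and 33633249 counts in siNSUN2 replicates 1 and 2, and 42298529 and 215936965 counts in siControl replicates 1 and 2. NSUN2 (ENSG00000037474) was read at 29.6 and 30.1 CPM (counts scaled to library size with TMM factors) in the siNSUN2 libraries and at 281 and 284 CPM in the siControl libraries (log2 fold change −3.24, SE 0.043, adjusted p = 1.64e-09). Of 16 urothelial and bladder line markers, 7 reached 1 CPM, namely KRT7, KRT8, KRT18, UPK1B, PPARG, VIM and CDH2. UPK1B, a uroplakin gene, was at 1.62 and 2.07 CPM in siNSUN2 and at 3.86 and 4.18 CPM in siControl. The markers below 1 CPM included KRT5, KRT20, GATA3, CDH1 and EPCAM. Of 11 markers of other cell types, 3 reached 1 CPM (HBB, VWF and COL1A1), and their list summed to 5.07 to 15.7 CPM in siNSUN2 and to 1.15 to 2.30 CPM in siControl. In siNSUN2 replicates 1 and 2, VWF was at 1.80 and 8.73 CPM and HBB at 0 and 2.66 CPM. In siControl replicates 1 and 2, VWF was at 0.165 and 0.113 CPM and HBB at 0 and 0.188 CPM. COL1A1 was at 2.92 and 3.30 CPM in siNSUN2 and at 0.847 and 1.64 CPM in siControl. VWF and HBB were thus highest in siNSUN2 replicate 2. Of the markers below 1 CPM, PTPRC was at 0.0436 and 0.584 CPM in siNSUN2 replicates 1 and 2. It was at 0 and 0.0188 CPM in siControl replicates 1 and 2. MS4A1, CD14 and ACTA1 were also highest in siNSUN2 replicate 2. DCN was highest in siNSUN2 replicate 1, CD3E and DES were highest in siControl replicate 2, and PECAM1 was at 0 in every library. The part of these markers in the TRIM results was not tested. In bulk RNA, fewer cells with a transcript and less of it per cell cannot be told apart.

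Of the 74 TRIM genes, 39 passed the filter on low counts and were tested. Among these, 15 were higher and 7 lower in siNSUN2 cells, and 17 did not pass the test (edgeR's quasi-likelihood test, Benjamini-Hochberg adjusted p at or under 0.05 over all genes). The 22 called members were 56.4% of those tested, against 52.6% of all 16889 genes. Higher members were 38.5% of those tested, against 27.1% of all genes, and lower members were 17.9%, against 25.5%. The share of members called was thus near that of the table as a whole. Among genes with a mean of at least 1 CPM, 62.9% of 35 members and 65.0% of 12726 genes were called.

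The changes of the TRIM genes were small. TRIM41, TRIM47, TRIM3 and TRIM56, all higher, were the only called members that differed by 1.5-fold or more, which is 10.3% of the tested members against 22.3% of all genes. TRIM56, with a log2 fold change of 0.59, lay just inside that line, and the next called member, TRIM8, lay outside it at 0.43. The other 18 called members changed by less. The median size of the log2 fold change, without its sign, was 0.24 over the tested members and 0.39 over all genes. At 1 CPM or more it was 0.20 over the members and 0.34 over all genes. The signed median was 0.05 over the members and 0.03 over all genes. The groups did not overlap for 32 of the 39 tested members (82.1%, against 74.6% of all genes), and these included all 22 called members.

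**Figure D1:**
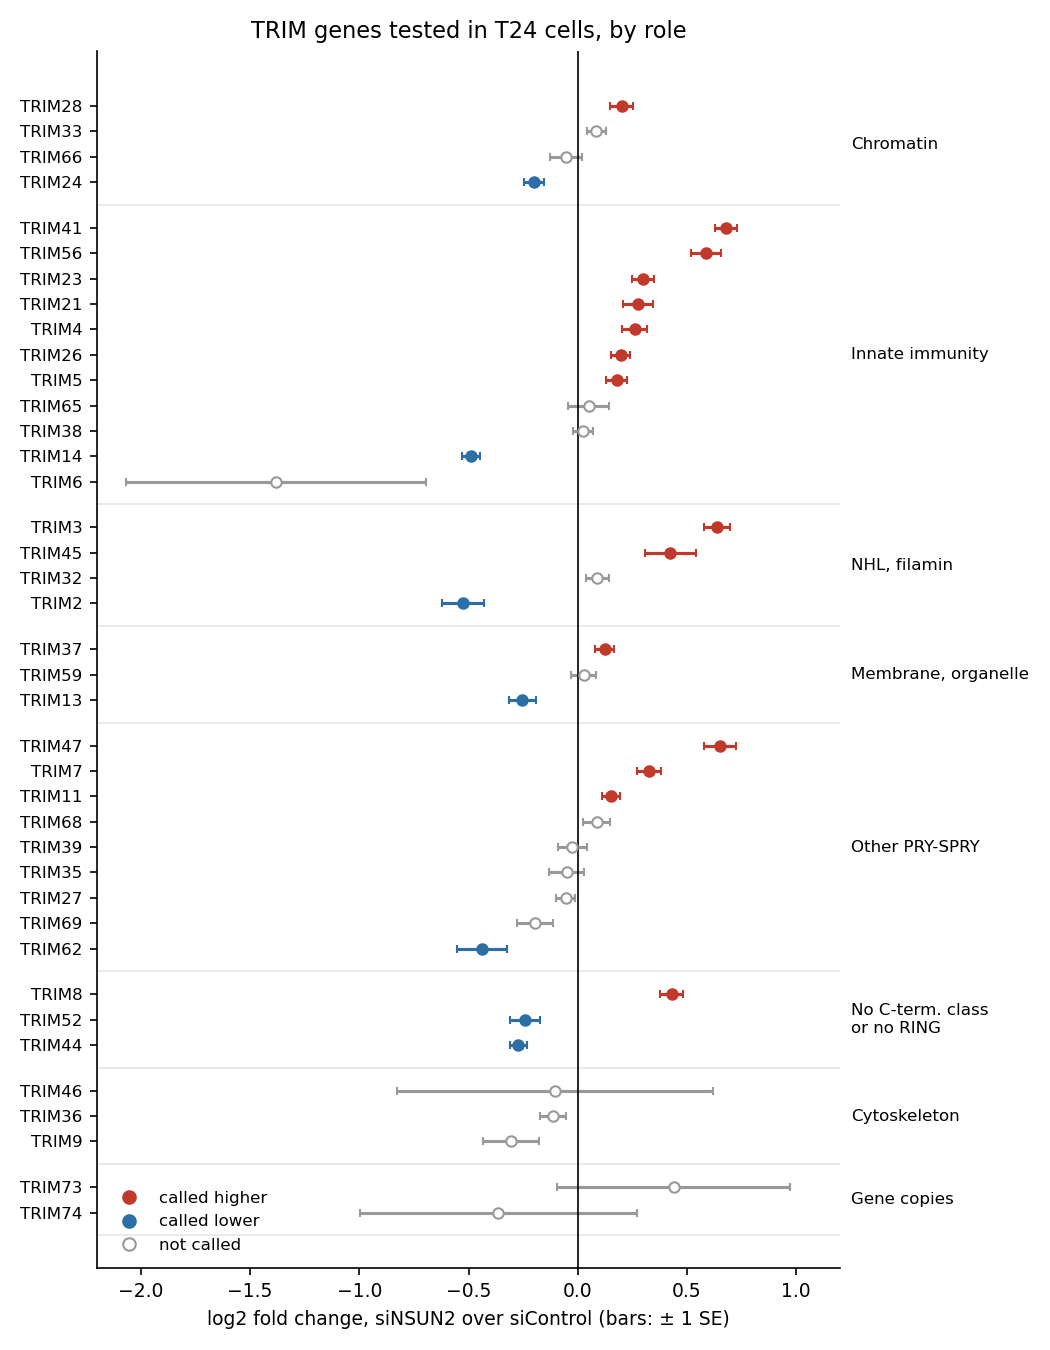
Log2 fold change (siNSUN2 over siControl, x axis) of each of the 39 tested TRIM genes, grouped by role, with bars of 1 SE (2 libraries per group). Filled red points were called higher, filled blue points lower, and open points were not called; TRIM41, TRIM47, TRIM3 and TRIM56 lie farthest right among the called genes and TRIM2, TRIM14 and TRIM62 farthest left.

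**Figure D2:**
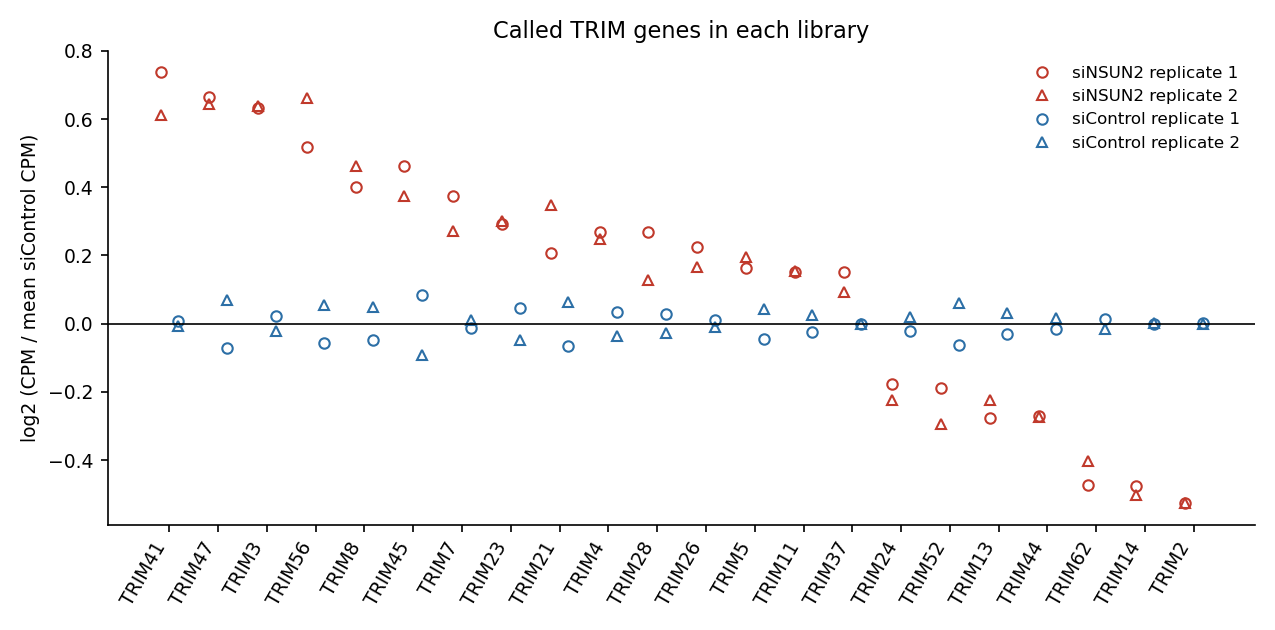
Each called TRIM gene in each library, as the log2 ratio of its CPM to the mean CPM of the siControl libraries (y axis). Red symbols are siNSUN2 libraries and blue symbols siControl libraries, circles replicate 1 and triangles replicate 2; for all 22 genes the red pair does not overlap the blue pair.

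Several TRIM genes are known to be induced by interferon, so the promoters were searched for the interferon-stimulated response element (GAAA, 2 free bases, GAAA) and the gamma-activated site (TTC, 3 free bases, GAA), on both strands. The windows were those of RefSeq on GRCh38.p14, from 250 bases before to 50 bases after a start. They were found for 60 members, with 80 windows in all. The first motif was in 9 of these windows (11.2%), against 3.57% of all 35116 windows, and the second was in 14 (17.5%), against 7.66%. Windows of a gene can overlap, and those of gene copies are nearly the same. The first motif fell in windows of 7 tested members: TRIM5, TRIM21 and TRIM26 were higher in siNSUN2 cells, TRIM2, TRIM14 and TRIM44 were lower, and TRIM69 was not called. The second motif fell in windows of 4 tested members: TRIM3 and TRIM7 were higher, TRIM2 was lower, and TRIM46 was not called. The stretches of the first motif before the start are shown, with the motif in capitals, for members that moved each way. They are written along the gene's strand, and a match on the other strand reads TTTC, 2 free bases, TTTC.
TRIM5 (chr11:5685082-5685111, minus strand, called higher): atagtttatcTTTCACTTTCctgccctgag
TRIM26 (chr6:30213575-30213604, minus strand, called higher): ctgatttcagTTTCCATTTCgctgcccctg
TRIM14 (chr9:98119229-98119258, minus strand, called lower): acggccgaggTTTCGGTTTCccttgggagc
TRIM44 (chr11:35662730-35662759, plus strand, called lower): tcctgacgggGAAAGGGAAAgtggaaccgg
TRIM2 (chr4:153151936-153151965, plus strand, called lower): aataaatagaGAAAAGGAAAtaagccgaag
The motif starts 26 bases before the annotated start in TRIM14, 27 in TRIM5 and 35 in TRIM44, and 188 and 217 bases before it in TRIM26 and TRIM2. In TRIM26 another match overlaps it.

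The 6-base word ACCCTA in 3′ UTRs went with lower transcripts over the whole table: the 2893 tested genes with it had a median log2 fold change of −0.16, and the 9613 without it had 0.09. The choice of this word is not explained in the sources used here, so the difference is only a description of these libraries. Genes with and without the word were not matched for 3′ UTR length or GC content. Over the 39 tested members, Spearman's rho of the log2 fold change with 3′ UTR length was −0.29. The word was therefore not tested apart from length and GC content. The longest annotated 3′ UTR (GENCODE 29, GRCh38) held the word in 8 tested members. Of these, TRIM3, TRIM32, TRIM47 and TRIM68 had log2 fold changes above 0 and TRIM14, TRIM24, TRIM39 and TRIM44 had values below 0, with a median of 0.03. The 31 tested members without it had a median of 0.05. The sites are shown for called members, with the word, and an A beside it where there is one, in capitals.
TRIM3 (chr11:6448774-6448803, minus strand, called higher): gtgcagagcttcACCCTAcccttcttacac
TRIM47 (chr17:75874224-75874253, minus strand, called higher): agctccaagctACCCTAAcccctcctttcc
TRIM14 (chr9:98086890-98086919, minus strand, called lower): cctcatcttccACCCTAAaactagagtgat
TRIM24 (chr7:138586972-138587001, plus strand, called lower): gtatttgtttcACCCTAAccatctttggct
TRIM44 (chr11:35808341-35808370, plus strand, called lower): ccaacaaaagtACCCTAAaagaaggaccag
TRIM44, whose annotated 3′ UTR runs to 11622 bases, held the word at 3 places, and TRIM3 and TRIM24 held it at 2 places each. The words in these members stood beside changes in both directions.

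Among the TRIM genes with known roles in innate immunity and virus restriction, TRIM41 and TRIM56 were higher by the most and TRIM14 was lower. Of 13 listed, 11 were tested: 7 were higher, 1 was lower and 3 did not pass the test (27.1% and 25.5% of all genes were higher and lower), with a median log2 fold change of 0.20 (0.26 once trends with GC content and transcript length were removed). TRIM41, a PRY-SPRY ligase known to act on viral nucleoproteins and on the DNA sensor cGAS, was the member with the largest called rise. It was read at 81.3 and 74.6 CPM in siNSUN2 libraries and at 49.0 and 48.5 CPM in siControl libraries (log2 fold change 0.68, SE 0.051, adjusted p = 4.22e-06). TRIM56, which promotes STING and Toll-like receptor 3 signalling, was read at 33.9 and 37.5 CPM in siNSUN2, against 22.8 and 24.6 CPM in siControl (0.59, SE 0.068, adjusted p = 6.83e-05), and at 0.35 on the log2 scale with the GC and length trends removed. Both genes stood well clear of the control libraries. With either library of a group left out, TRIM41 stayed called, at 0.61 to 0.74.

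Smaller rises were measured for other genes of this list. TRIM23, which carries a GTPase domain in place of PRY-SPRY and modifies NEMO, was at 44.9 and 45.2 CPM in siNSUN2 and at 37.9 and 35.5 CPM in siControl (log2 fold change 0.30, SE 0.050, adjusted p = 7.94e-04). TRIM4, a ligase for RIG-I, was at 28.0 and 27.6 CPM in siNSUN2 and at 23.8 and 22.7 CPM in siControl (0.26, SE 0.058, adjusted p = 0.00408). TRIM21, the antibody receptor of the cytosol, was at 31.1 and 34.3 CPM in siNSUN2 and at 25.7 and 28.1 CPM in siControl (0.27, SE 0.069, adjusted p = 0.00834). In TRIM21 the groups are apart, but the gap between them is no wider than the gap within the siNSUN2 pair. It was not called without siControl replicate 1 (0.17, adjusted p = 0.136) or without siNSUN2 replicate 2 (0.20, adjusted p = 0.0798). TRIM5, which binds retroviral capsids, was at 50.1 and 51.3 CPM in siNSUN2 and at 43.4 and 46.1 CPM in siControl (0.18, SE 0.049, adjusted p = 0.0124). Its change was 0.09 without siControl replicate 1 (adjusted p = 0.260) and 0.16 without siNSUN2 replicate 2 (adjusted p = 0.0716), and DESeq2 did not call it (adjusted p = 0.0726). With the GC and length trends removed it was 0.37 (adjusted p = 4.22e-04). TRIM26, a ligase reported to act on nuclear IRF3, rose by 0.20 (SE 0.043, adjusted p = 0.00361), and this value was −0.05 with the GC and length trends removed.

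TRIM14 moved the other way. It has no RING finger and serves as a partner of MAVS, the adaptor of RIG-I, and as a stabiliser of cGAS. It was read at 47.4 and 46.6 CPM in siNSUN2 libraries and at 66.0 and 66.1 CPM in siControl libraries (log2 fold change −0.49, SE 0.041, adjusted p = 9.25e-06). The pairs were tight and far apart, and the fall was −0.63 with the GC and length trends removed. TRIM38 (0.03) and TRIM65 (0.05), a ligase for MDA5, were not called. With the GC and length trends removed, TRIM38 was called higher (0.18, adjusted p = 0.00914) and TRIM65 lower (−0.28, adjusted p = 0.0373). TRIM6 had the largest fitted change of the tested members, −1.38, but with an SE of 0.69 and 4 to 48 counts per library it did not pass the test (adjusted p = 0.127). In GENCODE 29 a read-through gene, TRIM6-TRIM34, covers 29.3% of the exons of TRIM6 and 83.0% of those of TRIM34, so counts of both are uncertain. TRIM34 had at most 4 counts in a library and TRIM31 at most 1.

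The sensors and adaptors these ligases act on were divided. Of 9 tested genes of the RIG-I and cGAS pathways, 4 were higher and 3 lower (27.1% of all genes were higher and 25.5% lower). Among the higher genes, DHX58 averaged 0.31 CPM in siNSUN2 and 0.064 CPM in siControl, and STING1 averaged 0.89 CPM in siNSUN2 and 0.18 CPM in siControl, so both were barely read. CGAS fell by 0.48 on the log2 scale (SE 0.041, adjusted p = 9.93e-06), with 55.4 and 54.7 CPM in siNSUN2, against 76.8 and 76.5 CPM in siControl, and was at −0.29 with the GC and length trends removed. RIGI, the RNA sensor modified by TRIM4, fell by 0.40 (SE 0.046, adjusted p = 6.63e-05), with 64.4 and 67.2 CPM in siNSUN2, against 89.4 and 84.8 CPM in siControl, and was at −0.16 with the correction (adjusted p = 0.0254). TBK1, the kinase downstream of both sensors, fell by 0.26 (SE 0.044, adjusted p = 8.28e-04), with 68.9 and 66.0 CPM in siNSUN2, against 81.9 and 79.5 CPM in siControl. Its log2 fold change was 0.02 with the correction. RIGI and CGAS were lower in the same libraries in which TRIM4, TRIM41 and TRIM56 were higher. All genes share these 4 libraries, and a link between the ligases and the sensors was not tested. MAVS, the adaptor of RIG-I, rose by 0.27 (SE 0.049, adjusted p = 0.00127), and was at 0.08 and not called with the correction (adjusted p = 0.168).

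The chromatin TRIM genes, whose products carry a PHD finger and a bromodomain, were 1 higher, 1 lower and 2 not called. Over all genes, 27.1% were higher and 25.5% lower. TRIM28, the corepressor recruited by KRAB zinc finger proteins, was the TRIM gene with the highest level and was at 396 and 359 CPM in siNSUN2, against 335 and 322 CPM in siControl (log2 fold change 0.20, SE 0.053, adjusted p = 0.0119). The siNSUN2 libraries stood farther from each other than the lower of them stood from the siControl pair. Its direction depended on the correction: with the GC and length trends removed it was called lower, at −0.40 (adjusted p = 4.98e-04). TRIM24, a coregulator of nuclear receptors, was at 46.0 and 44.6 CPM in siNSUN2, against 51.3 and 52.8 CPM in siControl (−0.20, SE 0.045, adjusted p = 0.00463), and −0.06 with the correction. TRIM33, which binds SMAD proteins, was at 90.4 and 91.0 CPM in siNSUN2 and at 83.4 and 87.4 CPM in siControl (0.09, SE 0.043, adjusted p = 0.128). TRIM66 was at 15.0 and 15.9 CPM in siNSUN2 and at 16.7 and 15.4 CPM in siControl (−0.05, SE 0.073, adjusted p = 0.593). The groups overlapped for TRIM66 and lay close together for TRIM33, which was called higher with the GC and length trends removed (0.28, adjusted p = 5.93e-04).

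The genes for proteins with which TRIM28 silences chromatin were also measured. Of 11 tested, 2 were higher, 7 lower and 2 not called (27.1% of all genes were higher and 25.5% lower), with a median log2 fold change of −0.26 (−0.06 with the GC and length trends removed). All 11 had a mean of at least 1 CPM, and 65.0% of such genes were called in either direction. CBX3, an HP1 protein bound by TRIM28, was at 203 and 195 CPM in siNSUN2, against 346 and 339 CPM in siControl (log2 fold change −0.78, SE 0.040, adjusted p = 5.01e-07), and at −0.50 with the correction. CHD4, a remodeller of the NuRD complex, was at 236 and 235 CPM in siNSUN2 and at 351 and 352 CPM in siControl (−0.58, SE 0.037, adjusted p = 1.71e-06). CBX5, another HP1 protein, was at 229 and 226 CPM in siNSUN2, against 161 and 166 CPM in siControl (0.48, SE 0.039, adjusted p = 7.87e-06). CBX1, also an HP1 protein, was at 196 and 181 CPM in siNSUN2, against 245 and 246 CPM in siControl (−0.38, SE 0.046, adjusted p = 1.01e-04), and at −0.28 with the correction. Of the HP1 genes, CBX1 and CBX3 were thus lower and CBX5 was higher. SETDB1, the histone methyltransferase brought in by TRIM28, was not called (−0.04, adjusted p = 0.552).

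The TRIM genes with NHL or filamin-type repeats held changes of both signs. TRIM3, an NHL protein studied mainly in neurons and as a growth suppressor, was at 25.1 and 25.2 CPM in siNSUN2, against 16.5 and 16.0 CPM in siControl (log2 fold change 0.64, SE 0.060, adjusted p = 1.77e-05). TRIM2, its closest relative and a ligase for the light neurofilament, was at 6.31 and 6.31 CPM in siNSUN2, against 9.08 and 9.07 CPM in siControl (−0.53, SE 0.098, adjusted p = 0.00152). This relative pair thus split, with TRIM3 higher and TRIM2 lower, each with no overlap between groups. TRIM45, which has a filamin-type repeat, was at 7.67 and 7.21 CPM in siNSUN2 and at 5.91 and 5.23 CPM in siControl (0.42, SE 0.118, adjusted p = 0.0136). TRIM45 was not called without siControl replicate 2 (0.32, adjusted p = 0.136) or without siNSUN2 replicate 1 (0.38, adjusted p = 0.0917). TRIM32, an NHL protein mutated in a limb-girdle muscular dystrophy, was at 49.6 and 45.8 CPM in siNSUN2 and at 45.5 and 44.4 CPM in siControl (0.09, SE 0.052, adjusted p = 0.187). TRIM71, a stem cell protein, had at most 1 count in a library.

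Of the TRIM genes whose products sit at membranes or organelles, 1 was higher, 1 lower and 1 not called. Over all genes, 27.1% were higher and 25.5% lower. TRIM37, a ligase of peroxisomes and centrosomes, was at 123 and 118 CPM in siNSUN2, against 111 and 111 CPM in siControl (log2 fold change 0.12, SE 0.042, adjusted p = 0.0336). It is the smallest called rise among the members, and it was lost with each library left out except siNSUN2 replicate 2, with adjusted p of 0.0985 without siNSUN2 replicate 1, 0.228 without siControl replicate 1 and 0.118 without siControl replicate 2. With the GC and length trends removed it was 0.30 (adjusted p = 2.12e-04). TRIM13, a ligase anchored in the endoplasmic reticulum, was at 21.0 and 21.7 CPM in siNSUN2, against 24.9 and 26.0 CPM in siControl (−0.25, SE 0.060, adjusted p = 0.00578), and at −0.05 on the log2 scale with the GC and length trends removed. The gene KCNRG shares 13.4% of the exon bases of TRIM13 on the same strand. TRIM59, a membrane-spanning ligase, was at 21.9 and 22.2 CPM in siNSUN2 and at 21.4 and 21.9 CPM in siControl (0.03, SE 0.058, adjusted p = 0.739). It overlaps exons of SMC4 on the other strand over 19.8% of its exon bases. On the same strand, the gene ENSG00000248710 shares 14.5% of the exon bases of TRIM59.

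Of 9 other tested PRY-SPRY genes, 3 were higher, 1 was lower and 5 were not called (27.1% of all genes were higher and 25.5% lower). TRIM47 was at 18.7 and 18.4 CPM in siNSUN2, against 11.2 and 12.4 CPM in siControl (log2 fold change 0.65, SE 0.074, adjusted p = 6.29e-05). This rise went to −0.07 with the GC and length trends removed. The gene is the most GC-rich tested member, at 66.4% of the longest transcript, and 51.5% of its exon bases overlap an antisense gene. TRIM7, known as a partner of glycogenin, was at 39.9 and 37.2 CPM in siNSUN2 and at 30.5 and 31.0 CPM in siControl (0.33, SE 0.054, adjusted p = 7.39e-04), and at 0.11 (adjusted p = 0.0940) with the correction. TRIM62, a ligase linked to epithelial polarity, was at 5.03 and 5.29 CPM in siNSUN2, against 7.06 and 6.92 CPM in siControl (−0.44, SE 0.114, adjusted p = 0.00941). Its fall was −0.82 with the correction, and it was not called without siNSUN2 replicate 1 (−0.40, adjusted p = 0.0552). TRIM11 rose by 0.15 (SE 0.043, adjusted p = 0.0147). It missed the threshold at nearly the same value without siNSUN2 replicate 1 (0.15, adjusted p = 0.0569) and without siNSUN2 replicate 2 (0.15, adjusted p = 0.0521), and was at 0.08 without siControl replicate 1 (adjusted p = 0.265). The log2 fold changes of TRIM68, TRIM39, TRIM35, TRIM27 and TRIM69, none of them called, were 0.09, −0.02, −0.05, −0.06 and −0.20. A read-through gene, TRIM39-RPP21, covers 29.5% of the exon bases of TRIM39.

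All 3 tested genes without a C-terminal class or without a RING were called. Over all genes 52.6% were called, and 65.0% of those with a mean of at least 1 CPM. TRIM8, a ligase in cytokine and NF-kB signalling, was at 50.2 and 52.5 CPM in siNSUN2, against 36.8 and 39.3 CPM in siControl (log2 fold change 0.43, SE 0.052, adjusted p = 9.43e-05), and at −0.10 with the GC and length trends removed. TRIM44, which has no RING and carries a ubiquitin-binding zinc finger of the kind found in deubiquitinases, was at 107 and 107 CPM in siNSUN2, against 127 and 131 CPM in siControl (−0.27, SE 0.040, adjusted p = 3.48e-04). TRIM44 is among the more abundant members, and its pairs did not overlap. TRIM52, a RING protein with an acidic loop, was at 19.9 and 18.5 CPM in siNSUN2 and at 21.7 and 23.7 CPM in siControl (−0.24, SE 0.070, adjusted p = 0.0164). TRIM52 was not called without siNSUN2 replicate 2 (−0.19, adjusted p = 0.110), without siControl replicate 2 (−0.19, adjusted p = 0.102) or with the GC and length trends removed (−0.10, adjusted p = 0.248). Antisense genes cover 28.5% of the exon bases of TRIM52 and 14.1% of those of TRIM8.

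The TRIM genes of muscle and of the microtubule cytoskeleton were low or not called. TRIM9 (−0.31, adjusted p = 0.0757), TRIM36 (−0.11) and TRIM46 (−0.10) were tested. The muscle genes TRIM54, TRIM55 and TRIM63 had at most 2, 11 and 1 counts in a library. Among 19 gene copies, TRIM73 (0.44, SE 0.53) and TRIM74 (−0.36, SE 0.63) were tested, with 5 to 71 counts, and neither was called. These genes are near-identical, so reads may be split between them. In all, 35 members were not tested: 19 had 0 counts in every library, and the other 16 had at most 11 counts in any library.

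Read per length, TRIM28 stood far above the other TRIM genes in both groups. Levels were taken as CPM per kb of exon (all annotated exons of a gene joined). TRIM28 was at 93.6 ± 6.54 CPM per kb in siNSUN2 and 81.5 ± 2.21 CPM per kb in siControl (mean ± SD, n = 2 each). TRIM37 followed at 22.0 ± 0.630 CPM per kb in siNSUN2 and 20.2 ± 0.001 CPM per kb in siControl. TRIM26 stood at 17.9 ± 0.515 CPM per kb in siNSUN2 and 15.6 ± 0.157 CPM per kb in siControl, and TRIM21 at 17.0 ± 1.17 CPM per kb in siNSUN2 and 14.0 ± 0.880 CPM per kb in siControl. TRIM26 and TRIM21 were within their spread of each other in siNSUN2. At the low end TRIM6, TRIM46, TRIM73 and TRIM74 had means under 1 CPM. Summed over the tested members, the TRIM genes took 1748 and 1687 CPM in siNSUN2 libraries, against 1595 and 1601 CPM in siControl libraries.

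**Figure D3:**
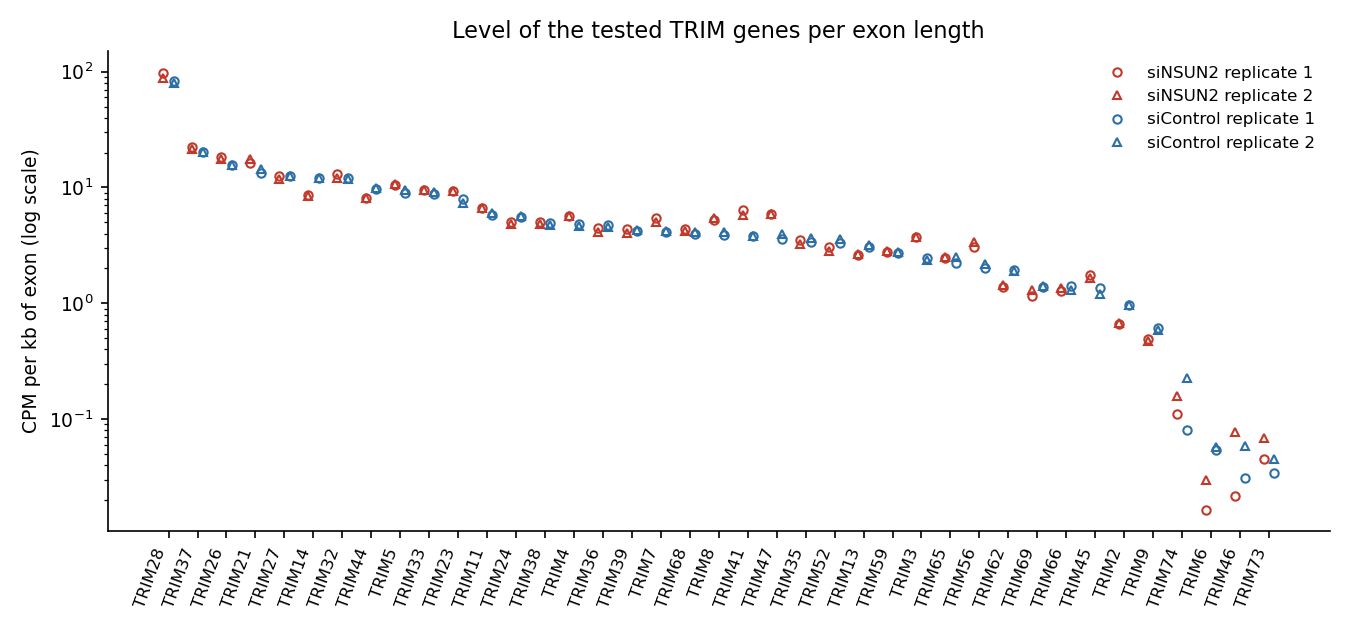
Level of each of the 39 tested TRIM genes in each library, in CPM per kb of exon on a log axis, in order of the siControl mean. Red symbols are siNSUN2 and blue symbols siControl, circles replicate 1 and triangles replicate 2; TRIM28 stands apart at the top, and the 4 genes at the right have means under 1 CPM.

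Fold changes in these libraries went with GC content over the whole table, and the TRIM genes followed this in part. The genes were put in 3 bins of equal size by GC content. In the bin of highest GC content the median log2 fold change was 0.20 over 13 tested members and 0.39 over all genes. In the middle bin it was 0.03 over 14 members and −0.03 over all genes, and in the bin of lowest GC content it was −0.04 over 12 members and −0.20 over all genes. Spearman's rho of the log2 fold change with GC content was 0.26 over the 39 members and 0.41 over 16286 genes, as a description, since all genes share the 4 libraries. With the GC and length trends removed, rho over the 39 members was −0.43. The medians of the members were then 0.165 in the lowest bin, 0.014 in the middle bin and −0.096 in the highest bin. The corrected values of the members thus still went with GC content, in the other direction. Removing the trends moved the median of the members to −0.05, and turned TRIM8, TRIM11, TRIM26, TRIM28 and TRIM47, all called higher, to values below 0. Of these, TRIM28 alone was called in the other direction. TRIM56 (0.35), TRIM2 (−0.33) and TRIM44 (−0.17) were nearer 0 with the correction, and TRIM23, TRIM5 and TRIM37 were farther from it. TRIM41 (0.72), TRIM3 (0.63), TRIM23 (0.58), TRIM14 (−0.63) and TRIM62 (−0.82) were at least as far or nearly as far from 0 with the correction.

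**Figure D4:**
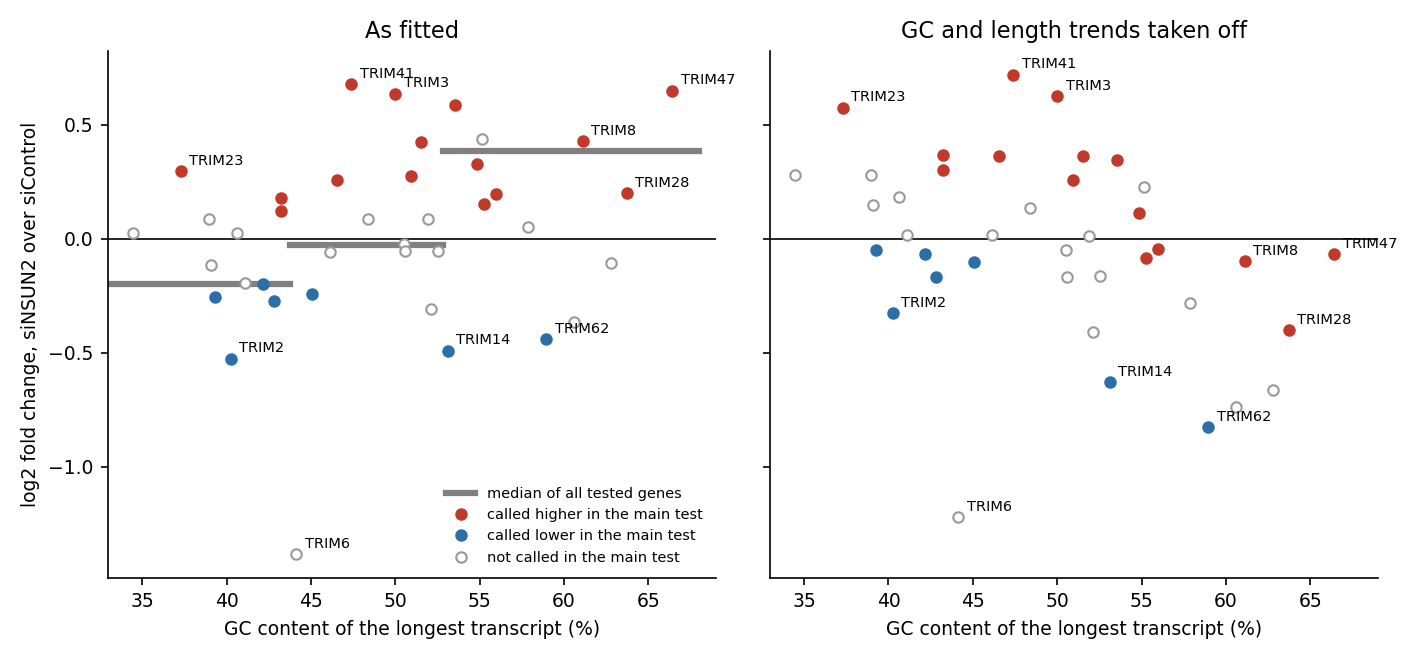
Log2 fold change (siNSUN2 over siControl, y axis) of the tested TRIM genes against the GC content of the longest transcript (x axis, percent), as fitted (left) and with the GC and length trends removed (right). Grey bars on the left are medians of all tested genes in each of 3 bins of GC content; the GC-rich genes TRIM47, TRIM8 and TRIM28 are above 0 on the left and below 0 on the right, while TRIM41, TRIM3 and TRIM23 stay above 0.

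Some TRIM genes lie side by side, and their values are given together; differences between neighbours were not tested. In gene order, with at most 3 coding genes between members, 33 members fell into 9 clusters, and 4 clusters had at least 2 tested members. On chromosome 5, TRIM7 (0.33) and TRIM41 (0.68) were higher and TRIM52 (−0.24) was lower. On chromosome 17, TRIM47 was higher (0.65), and its neighbour TRIM65 had 0.05 and was not called. On chromosome 6, TRIM26 was higher (0.20) and TRIM39 had −0.02, and both were at −0.05 with the GC and length trends removed. On chromosome 11, TRIM5 was higher (0.18), and TRIM6 had −1.38 and was not called.

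The E2 enzymes with which RING ligases work were divided. Of 12 tested, 7 were lower, 2 higher and 3 not called (25.5% of all genes were lower and 27.1% higher), with a median log2 fold change of −0.23 (0.01 with the GC and length trends removed). All 12 had a mean of at least 1 CPM, and 65.0% of such genes were called in either direction. UBE2W, which puts ubiquitin on the N-terminus of proteins, TRIM5 and TRIM21 among them, was at 21.9 and 23.4 CPM in siNSUN2, against 46.5 and 46.1 CPM in siControl (log2 fold change −1.03, SE 0.054, adjusted p = 5.40e-07). UBE2D4 was at 3.85 and 4.26 CPM in siNSUN2 and at 9.62 and 9.98 CPM in siControl (−1.28, SE 0.112, adjusted p = 1.16e-05). UBE2V2, a partner of UBE2N in building chains through lysine 63, was at 147 and 144 CPM in siNSUN2 and at 197 and 190.4 CPM in siControl (−0.41, SE 0.041, adjusted p = 2.57e-05). With the correction UBE2W was at −0.79, UBE2D4 at −1.21 and UBE2V2 at −0.15. The abundant UBE2D2 and UBE2D3, general partners of RING ligases, rose by 0.16 and 0.13, and by 0.28 and 0.38 with the correction.

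Among 5 tested TRIM proteins known by other names, 1 gene was higher and 1 lower (27.1% of all genes were higher and 25.5% lower). PML, the organiser of PML nuclear bodies, was at 47.6 and 46.5 CPM in siNSUN2, against 35.5 and 35.6 CPM in siControl (log2 fold change 0.40, SE 0.046, adjusted p = 6.21e-05), and at 0.02 with the GC and length trends removed. MID1, a microtubule-bound ligase mutated in Opitz syndrome, was at 14.4 and 13.6 CPM in siNSUN2, against 20.1 and 22.8 CPM in siControl (−0.62, SE 0.078, adjusted p = 1.23e-04), and at −0.46 with the correction. MID2, MEFV and CMYA5 were not called.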

How the data were processed

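Poly(A) RNA of 4 T24 libraries was sequenced as read pairs with a stranded kit, per the labels' protocols. The authors deposited raw counts per Ensembl gene. HISAT2, HTSeq and genome build hg19 are named in the submitters' processing notes. No version, annotation or strand setting is given in the sources used here, so reads of overlapping genes, antisense genes and gene copies may be lost or split. Sample titles gave the groups and the replicate numbers. The 62893 rows were joined by gene ID to gene names and GENCODE 29 (GRCh38); sequences came from GENCODE 29 and RefSeq promoters (GRCh38.p14), and no coordinates were moved between builds.

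The main test was edgeR 4.0.16 in R 4.3.3 (quasi-likelihood F-test, robust, TMM, filterByExpr by group, two-sided, Benjamini-Hochberg over all 16889 genes kept, threshold 0.05), with no replicate block. The fit ran on both groups. Depth was 33633249 to 215936965 counts per library. The libraries of a group differed beyond sampling noise (chi-square over its degrees of freedom was 13.1 for siNSUN2 and 21.7 for siControl) and were counted as separate samples. An exact permutation test of 2 against 2 cannot go below p = 0.333 and was not used. The test was checked on simulated counts. GC and length trends were removed as loess offsets (span 0.3), with GC content and length known for 96.4% of genes kept. Alternatives were DESeq2 1.42.0, limma-voom 3.58.1, other scaling and filters, thinned libraries, a replicate block and each library left out.

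Values in every library are given for the 10 largest called rises, the 7 called falls and NSUN2. The same was done for TRIM5, TRIM8, TRIM13, TRIM21, TRIM24, TRIM28, TRIM32, TRIM33, TRIM37, TRIM59 and TRIM66. In each list of genes outside the family, markers aside, it was done for up to 3 called genes with the smallest p. MAVS, DHX58, STING1, CBX1, SETDB1, UBE2D2 and UBE2D3 were named after their values were seen. The members and lists were chosen with earlier results of these data known. No list was tested as a set.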

Additional observations from a re-analysis of the deposited data

How the results depend on the processing

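Across the 12 alternatives, 18 to 23 tested members were called, 11 to 15 of them higher and 6 to 8 lower. TRIM2, TRIM3, TRIM4, TRIM14, TRIM23, TRIM41, TRIM44 and TRIM56, 8 of the 22 called members, kept their direction and call under every alternative. The median log2 fold change of the tested members was −0.00066 to 0.11 with 1 library left out, 0.10 with libraries thinned to the shallowest and −0.046 with the GC and length trends removed. That correction turned the log2 fold change of TRIM8 to −0.096, TRIM11 to −0.085, TRIM26 to −0.046, TRIM28 to −0.40, TRIM47 to −0.066, TRIM65 to −0.28, TRIM27 to 0.016, TRIM36 to 0.15 and TRIM69 to 0.017. TRIM28 and TRIM65 were called lower there, and TRIM8, TRIM11, TRIM26 and TRIM47 were no longer called. The correction also ended the calls of TRIM7, TRIM13, TRIM24 and TRIM52 and added those of TRIM9 (lower) and of TRIM32, TRIM33, TRIM38 and TRIM59 (higher), which leaves 20 members called. The cause was not tested. With 1 library left out, the sign changed only in members that were not called: TRIM46 (−1.13 to 0.70), TRIM74 (−0.85 to 0.67), TRIM35 (−0.16 to 0.011), TRIM39 (−0.086 to 0.031), TRIM38 (−0.0099 to 0.047), TRIM59 (−0.034 to 0.036) and TRIM65 (−0.067 to 0.12). TRIM59 was at −0.027 in thinned libraries. TRIM46 was at 0.029 with DESeq2 and at 0.050 with the replicate block. TRIM37 lost its call with the size factors of DESeq2 (adjusted p = 0.0567), with DESeq2 (0.0668) and without a low-count filter (0.124), TRIM11 with DESeq2 (0.0882) and without the filter (0.0518), and TRIM5 in thinned libraries (0.117). TRIM69 was called lower with limma-voom (−0.24) and without siNSUN2 replicate 2 (−0.27).

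With the replicate block, 22 members were called, 15 higher and 7 lower, and no member gained or lost a call. Over all genes 9815 were called with it, against 8880 without it. Deviations of libraries with the same number correlated at 0.18, over 2 pairs only. Whether libraries with the same number share a culture, batch or day is not stated in the labels and was not tested. The 1.5-fold line is close for TRIM56, whose log2 fold change was 0.49 to 0.66 with 1 library left out and 0.35 with the GC and length trends removed. The 4 members under 1 CPM on average cannot show changes of this size at this depth.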
